A study of Mus musculus with 6 samples.

Results

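Transcripts of 10 genes that relay or restrain cytokine and growth hormone signals were followed in mouse liver after ischemia and reperfusion. They are the 4 Janus kinases (Jak1, Jak2, Jak3 and Tyk2), the transcription factors Stat3 and Stat5b, and 4 feedback inhibitors of the suppressor of cytokine signalling (SOCS) family (Socs1, Socs2, Socs3 and Cish). They were picked out by gene name, and all 10 were found once among the 15454 rows of the count table and once among the 21948 rows of the FPKM table (fragments per kilobase scaled to sequencing depth). Liver RNA came from male C57BL/6 mice, 8 to 10 weeks old, in which 75% of the liver had undergone warm ischemia followed by reperfusion. Of these mice, 3 had received the vehicle alone (I/R) and 3 had received ginsenoside Rk2, a saponin derived from ginseng, in that vehicle (I/R+Rk2), 2 days before surgery and again as blood flow returned. Every liver was injured, so the comparison is of Rk2 against vehicle within injury, and no uninjured liver was analysed here.

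A JAK kinase is bound to the inner part of a cytokine receptor and, once ligand joins the receptor chains, phosphorylates the receptor and a STAT protein, which then pairs up, enters the nucleus and switches on target genes. SOCS genes are among those targets, and their proteins block the kinase or the receptor, which closes a negative feedback loop. In hepatocytes, interleukin-6 and related cytokines act through the shared receptor chain gp130, JAK1 and STAT3 to drive the acute-phase response and SOCS3, whereas growth hormone acts through JAK2 and STAT5B to drive Igf1, SOCS2 and CISH. RNA measures how much transcript was present, not how much kinase or STAT was phosphorylated.

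Among the 12411 genes with enough reads for a test, 43.9% had an adjusted p below 0.05 between the groups in edgeR's quasi-likelihood test (the threshold used throughout), 23.7% being lower and 20.3% higher in I/R+Rk2, and 11.4% were lower by more than 2-fold. The livers of the groups did not overlap for 57.4% of these genes, so a change or a separation was common in these data. Counts summed to between 16809613 and 35618074 per library, and the 10 genes held between 8001 and 17625 counts of each. Normalised read counts below are CPM, which divides counts by a library size adjusted with the trimmed mean of M-values method (TMM). Under library size alone the median log2 fold change of all genes moved from -0.01 to -0.17, and 72.5% of the called genes were lower instead of 53.9%. Values from whole liver cannot tell fewer cells of a type from less RNA per cell. Hepatocyte genes were plentiful in this tissue labelled liver, with Alb at 49230 CPM on average in I/R and 80120 CPM after Rk2. Not all of them rose, since Hnf4a averaged 660 CPM in I/R and 460 CPM after Rk2.

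All 10 genes passed the read filter, and the lowest count of any of them was 23, in Socs1. Of the 10, 9 had an adjusted p below 0.05 against the 43.9% of all genes. Of these, 7 were lower (Jak1, Jak2, Jak3, Stat3, Socs1, Socs3 and Cish) and 2 were higher (Tyk2 and Stat5b), while Socs2 did not pass. A fall of more than 2-fold was seen for 3 of the 10, Jak2, Socs1 and Cish. The median log2 fold change over the 10 was -0.72, beside -0.01 for all genes tested. The livers of the groups did not overlap for 8 of the 10, beside 57.4% of all genes.

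**Figure D1:**
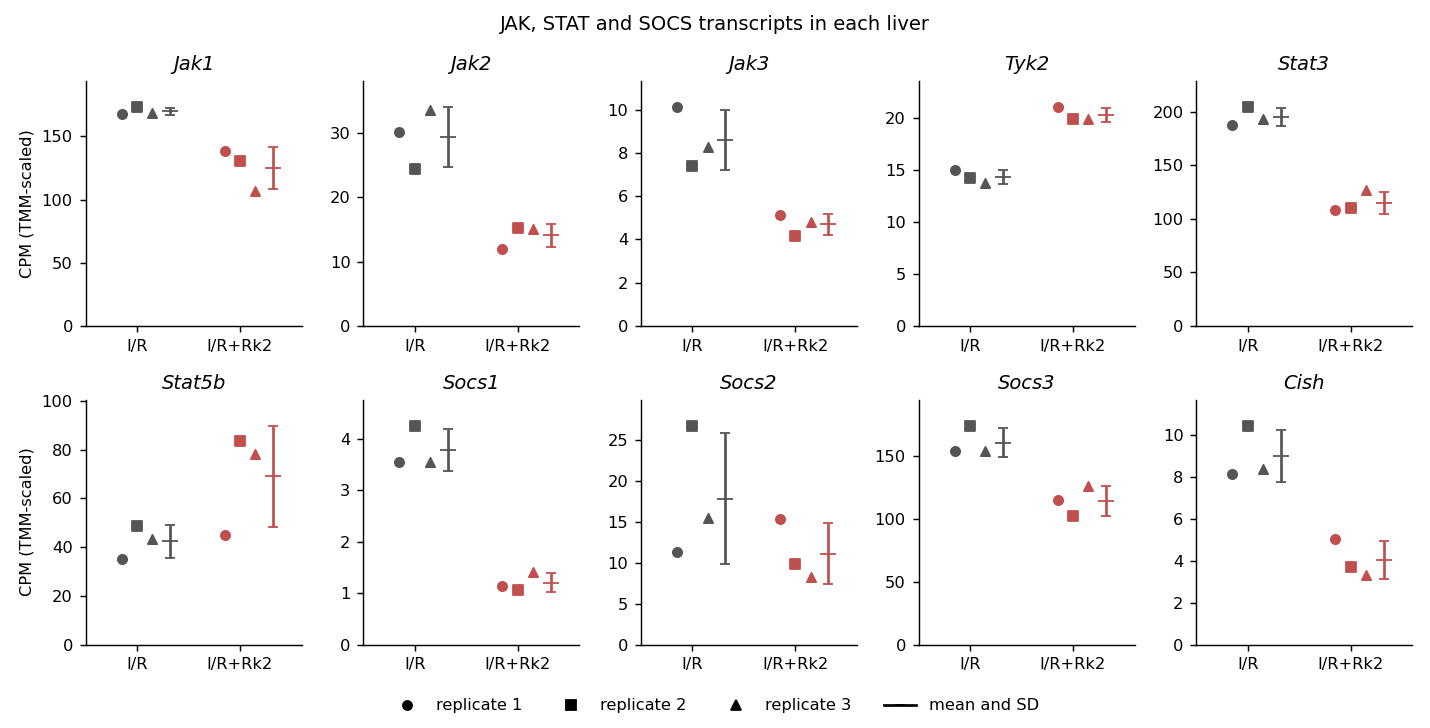
Normalised read counts (CPM, y axes from 0) of the 10 genes in the 3 I/R livers (grey) and the 3 I/R+Rk2 livers (red), with the symbol giving the replicate number and the bar the mean and SD. The groups lay apart for 8 genes and overlapped for Stat5b and Socs2, where I/R+Rk2 replicate 1 (45.1 CPM for Stat5b, 15.3 CPM for Socs2) fell within the range of the I/R livers.

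The JAK kinases did not move together. Jak1 serves most cytokine receptors of the liver, including those of the gp130 and interferon families. Its level was 167.5, 173 and 169 CPM in I/R replicates 1 to 3 and 138, 130 and 107 CPM after Rk2 replicates 1 to 3. Every treated liver lay below every I/R liver, and replicate 3 of the treated group was the lowest. Jak1 therefore fell by a modest 26.3% as fitted, the log2 ratio being -0.44 (SE 0.11, edgeR adjusted p = 0.0156). This call was lost without I/R replicate 3 (adjusted p = 0.0503) and when a trend of fold change with transcript length was removed, where the log2 fold change was -0.22 (adjusted p = 0.16).

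Jak2 is the kinase of the growth hormone, erythropoietin, thrombopoietin and leptin receptors. The I/R livers had 30.1, 24.5 and 33.6 CPM and the I/R+Rk2 livers 12.0, 15.2 and 15.1 CPM. The 2 groups were well separated, the lowest I/R liver standing clear of the highest treated one. The fall was 2.08-fold, with a log2 fold change of -1.06 (SE 0.15, edgeR adjusted p = 0.00227), and it held in each of 17 alternative fits, with log2 fold changes from -1.22 to -0.84.

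Jak3 pairs with the common gamma chain and is known chiefly from lymphoid and myeloid cells rather than hepatocytes. It was the scarcest of the kinases, at 10.1, 7.42 and 8.29 CPM in the I/R livers and 5.13, 4.17 and 4.79 CPM after Rk2, again without overlap. Its log2 fold change was -0.87 (SE 0.17, edgeR adjusted p = 0.00585), and it passed in all 17 alternatives. Neutrophil and monocyte transcripts fell in the same livers, where 23.7% of all genes tested were lower. Of 12 neutrophil markers 11 fell and none rose, and their summed level was 579 to 700 CPM in the I/R livers and 108 to 251 CPM after Rk2. All 10 genes of the monocyte list fell, including Ccr2 (-4.41) and Itgam, a gene named after its values were seen (-3.87), both as log2 fold changes. The summed level of the list was 1678 to 1992 CPM in the I/R livers and 1132 to 1190 CPM after Rk2. Most of that sum was Fn1, also named after its values were seen, which averaged 1609 and 1150 CPM. Its log2 fold change was -0.49, beside a list median of -4.10. The sum therefore says little about the rest of the list, and which cells Fn1 came from was not tested. Among 10 Kupffer cell markers 2 fell, a share no greater than the 23.7% of all genes and so no result about these cells. The 10 markers summed to 93.3 to 145.5 CPM in the I/R livers and 75.1 to 91.6 CPM after Rk2. The count of 2 rose to 7 with library size alone, to 5 when I/R replicate 2 was dropped and to 4 when I/R+Rk2 replicate 1 was. T and NK cell markers summed to only 1.51 to 2.54 CPM and 1.47 to 4.08 CPM, with Trac and Ncr1 absent from the count table. B cell markers summed to 0.261 to 0.957 CPM and 0.983 to 1.26 CPM, with Ighm absent likewise. Absent genes have no value, which differs from a count of 0. The part of these cells in the fall of Jak3, or of any other gene here, was not tested.

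Tyk2, which serves the type I interferon and interleukin-10 receptors among others, was the only JAK that was higher. It stood at 15.0, 14.3 and 13.8 CPM in the I/R livers and at 21.1, 19.9 and 19.96 CPM after Rk2, with little spread inside either group. The rise was 1.42-fold, with a log2 fold change of 0.50 (SE 0.10, edgeR adjusted p = 0.00585). It depended on scaling: with library size alone the log2 fold change was 0.34 (adjusted p = 0.0794), and in the 3 limma fits on FPKM it was 0.19 to 0.24 (adjusted p from 0.265 to 0.309).

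Since a ratio of 2 genes within a liver is free of scaling between livers, the kinases were also set against Jak1. Jak1 was itself lower in the treated livers (log2 fold change -0.44), so each ratio holds the change of both genes. A higher ratio of Tyk2 to Jak1 is therefore not separate evidence that Tyk2 rose. The count of Tyk2 per count of Jak1 was 0.0898, 0.0826 and 0.0815 in I/R and 0.153, 0.153 and 0.187 in I/R+Rk2. This ratio was 1.93-fold higher in treated livers with no overlap (exact two-sided permutation p = 0.1, the smallest that 3 against 3 allows, and 0.18 after adjustment over the 9 ratios tested). For Jak2 over Jak1 the ratio was 0.18, 0.141 and 0.199 against 0.0871, 0.117 and 0.142, and the groups touched (exact permutation p = 0.2, adjusted 0.225). Jak3 over Jak1 also overlapped (0.0429 to 0.0605 against 0.0321 to 0.0451, exact permutation p = 0.2, adjusted 0.225), although on FPKM it did not (exact permutation p = 0.1, the smallest possible). In terms of FPKM, which allows levels of different genes to be compared, Jak1 made up 74.7% to 77.6% of the summed JAK level in I/R and 72% to 78.1% in I/R+Rk2. Jak2 supplied 10.2% to 13.9% against 6.33% to 9.64%, Jak3 4.67% to 5.52% against 3.29% to 3.78%, and Tyk2 6.38% to 7.55% against 11.3% to 14.6%. Hence Tyk2 stood below Jak2 in each I/R liver and above it in each treated liver on this scale.

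**Figure D2:**
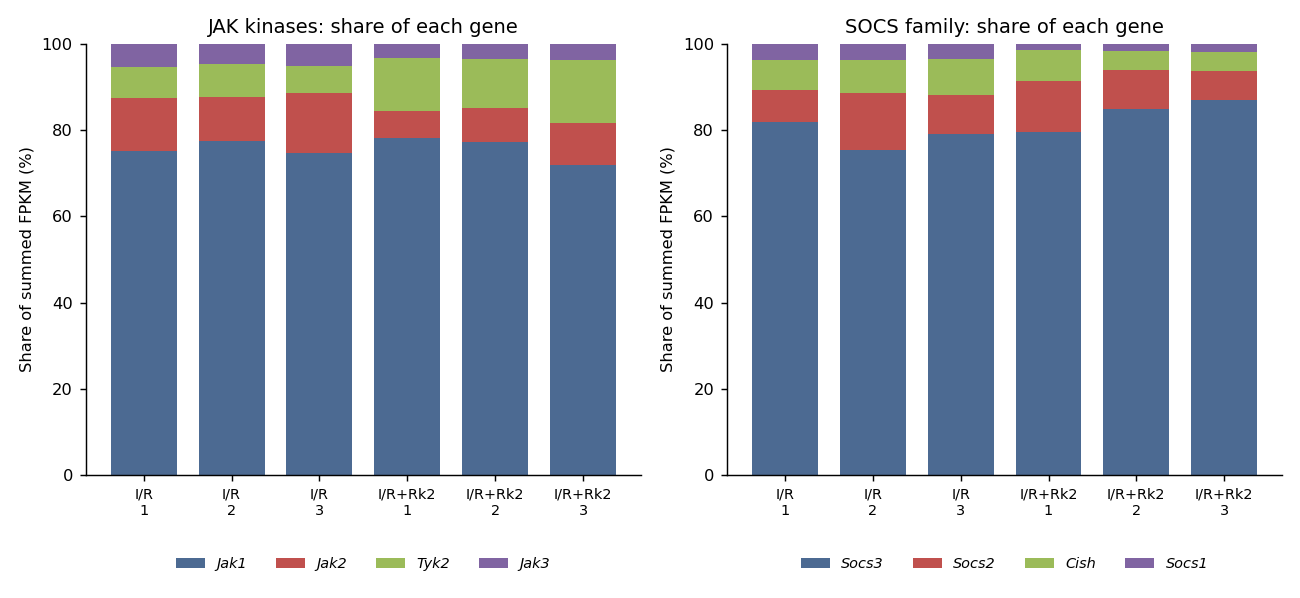
Share of each gene (%) in the summed FPKM of the JAK kinases (left) and of the SOCS family (right), with a bar for each liver. Jak1 and Socs3 made up most of their family in every liver, and the share of Tyk2 was 6.38% to 7.55% in I/R and 11.3% to 14.6% in I/R+Rk2.

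The STATs moved in opposite directions. Stat3, which carries the interleukin-6 signal to acute-phase genes, had 187, 204 and 193 CPM in the I/R livers and 108, 110 and 127 CPM after Rk2. All 3 treated livers were far below the I/R livers. Its log2 fold change was -0.76 (SE 0.09, edgeR adjusted p = 0.00123), and it passed in all 17 alternatives, from -0.92 to -0.61. Stat3 shares exon positions with Stat5a on the opposite strand, and the strand setting of the counting was not given, so reads of the pair could mix where they overlap. Stat5a had 223 to 516 counts per library beside 2066 to 5227 for Stat3, and its log2 ratio of 0.19 missed the threshold (edgeR adjusted p = 0.178).

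Stat5b, the STAT of growth hormone signalling in hepatocytes, was at 35.2, 48.6 and 43.5 CPM in the I/R livers and at 45.1, 83.5 and 78.4 CPM after Rk2. In the treated group, replicates 2 and 3 were well above every I/R liver, whereas replicate 1 lay inside the I/R range. The log2 fold change of 0.70 (SE 0.24) was only just past the threshold (edgeR adjusted p = 0.0478). Leaving out any liver other than I/R+Rk2 replicate 1 ended the call, with adjusted p-values from 0.0648 to 0.146, while dropping that liver gave a log2 ratio of 0.92 (adjusted p = 0.00436). Over all 17 alternatives the direction never changed, and 7 passed.

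The balance between the STATs could be read within each liver. There were 5.32, 4.20 and 4.43 counts of Stat3 per count of Stat5b in I/R and 2.39, 1.32 and 1.62 in I/R+Rk2. All treated livers were below the I/R livers, a 2.69-fold difference (exact two-sided permutation p = 0.1, the smallest possible, adjusted 0.18). In treated replicate 1, Stat5b (45.1 CPM) lay inside the I/R range and only Stat3 (108 CPM) lay outside its own. The low ratio of that liver thus restates its low Stat3.

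Next, the feedback inhibitors were examined. Promoter windows of 300 bases, from 250 before to 50 after the RefSeq start (GRCm38.p6), were at hand for 9 of the 10 genes, all but Socs2. They were searched for TTCNNNGAA, the palindromic letters that STAT dimers are known to bind, and for the form in which 4 bases part TTC from GAA, both of which read alike on either strand. The first was found in the windows of Cish and Socs3 alone, and the second in none, while 8.3% and 6.95% of all 32851 windows in the table held them. The 30 bases around each match are shown, because they hold the only matches in the windows searched. Matches are in capitals, and each strand is read 5′ to 3′ in the sense of the gene.
Cish, chr9:107296654-107296683, plus strand: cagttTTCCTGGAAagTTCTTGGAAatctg
Socs3, chr11:117969501-117969530, minus strand: gaaaccagccTTCTTAGAAgggaggggggg
Cish held 2 matches close together, at bases 1 to 9 and 12 to 20 from the RefSeq start, where GENCODE M21 has an untranslated exon of a longer transcript. Only 0.457% of all windows held 2 or more. The match in Socs3 lay 154 to 146 bases before the RefSeq start, in an intron of a longer GENCODE transcript. A match of letters is a description and not a measured binding site.

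Cish, whose protein damps STAT5 signals and which is induced by growth hormone and interleukins, had 8.13, 10.4 and 8.37 CPM in the I/R livers and 5.04, 3.70 and 3.32 CPM after Rk2. The groups were apart, and replicate 1 was the highest of the treated livers. Cish fell 2.23-fold, with a log2 fold change of -1.15 (SE 0.20, edgeR adjusted p = 0.00393), and passed in all 17 alternatives. This was opposite in direction to Stat5b. Counts of Cish per count of Stat5b were 0.232, 0.215 and 0.193 in I/R and 0.112, 0.0445 and 0.0427 in I/R+Rk2, which is 3.56-fold lower without overlap (exact two-sided permutation p = 0.1, adjusted 0.18).

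Socs2, the other growth hormone-induced inhibitor, varied more between the I/R livers, relative to its mean, than any of the other 9. Its values were 11.4, 26.8 and 15.4 CPM in the I/R livers and 15.3, 9.83 and 8.23 CPM after Rk2. The groups overlapped, since I/R replicate 1 was below treated replicate 1. A log2 fold change of -0.68 (SE 0.35) did not pass (edgeR adjusted p = 0.155), nor did any of the 17 alternatives (adjusted p from 0.0637 to 0.504). Without I/R replicate 2, the highest liver, the log2 fold change was -0.26. A difference of Socs2 was thus not detectable with this spread. Per count of Stat5b, Socs2 also overlapped between the groups (0.323 to 0.551 against 0.105 to 0.34, exact permutation p = 0.2, adjusted 0.225), although on FPKM it did not (exact permutation p = 0.1).

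Socs3, which binds gp130 and JAKs and ends the interleukin-6 signal, was the most abundant of the inhibitors. It was read at 154, 174.5 and 154 CPM in the I/R livers and at 115, 102 and 126 CPM after Rk2. The fall was smaller than those of Cish and Socs1 but uniform, with a log2 fold change of -0.49 (SE 0.11, edgeR adjusted p = 0.00931) and a pass in all 17 alternatives. Relative to Stat3 it was slightly higher in treated livers, at 1.07, 0.931 and 0.997 counts per count of Stat3 against 0.825, 0.856 and 0.80 in I/R. These ratios did not overlap (1.21-fold, exact two-sided permutation p = 0.1, adjusted 0.18), although on FPKM they did (exact permutation p = 0.2). Socs3 over Cish was 1.6-fold higher (16.7 to 18.9 against 22.7 to 37.8, exact permutation p = 0.1, adjusted 0.18), with overlap on FPKM (exact permutation p = 0.2). For Socs3 over Socs2 the difference was small beside the spread (1.11-fold, exact permutation p = 0.7, adjusted 0.7).

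Socs1, which inhibits JAK kinases directly and is best known for limiting interferon-γ signals, showed the largest fall of the 10. It had 3.55, 4.25 and 3.55 CPM in I/R, from 68, 109 and 89 counts, and 1.14, 1.07 and 1.41 CPM after Rk2, from 27, 36 and 23 counts. The highest treated liver was far below the lowest I/R liver. The log2 fold change was -1.66 (SE 0.22, edgeR adjusted p = 0.00147), a 3.17-fold fall, and it passed in all 17 alternatives. Its share of the summed SOCS family FPKM was 3.51% to 3.71% in I/R and 1.54% to 1.96% in I/R+Rk2, while Socs3 made up 75.3% to 81.8% and 79.5% to 87%.

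**Figure D3:**
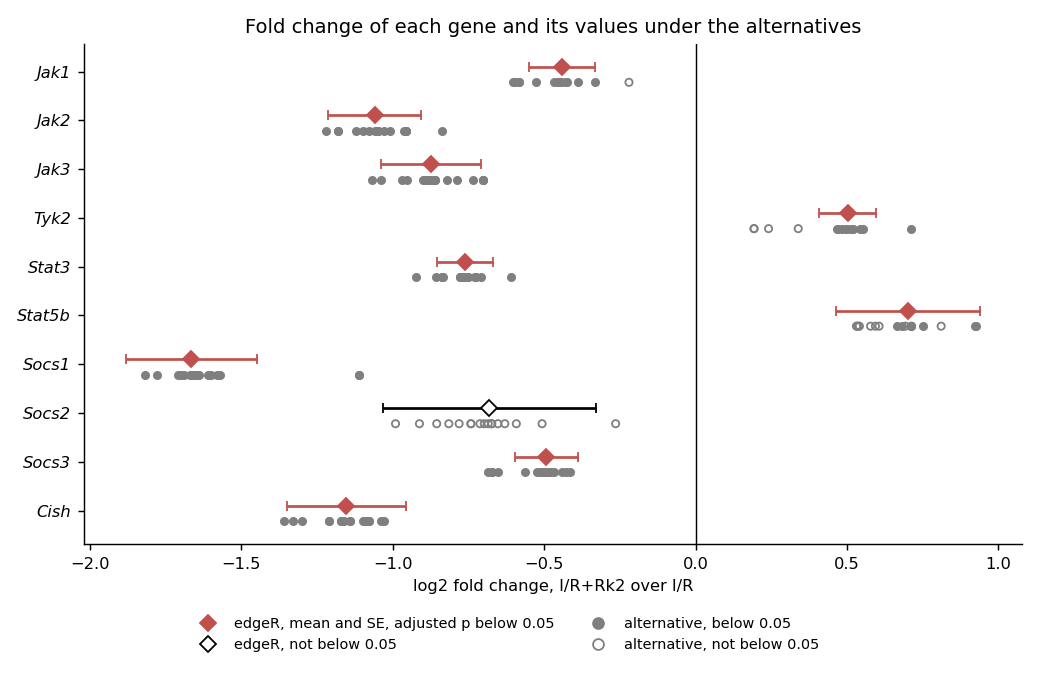
Log2 fold change of I/R+Rk2 over I/R (x axis) for each gene, with the diamond and bar giving the edgeR value and its SE and the circles giving 17 alternatives of scaling, filter, test, length correction or a left-out liver. Filled symbols had an adjusted p below 0.05, and no gene crossed 0; the open circles of Stat5b number 10, those of Tyk2 4, those of Jak1 2 (the pair without I/R replicate 3 and with the length trend removed) and those of Socs2 17.

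The order of the transcript levels, on the FPKM scale, was led by the same 3 genes in both groups. In I/R, Socs3 was at 66.6 ± 4.13 FPKM (SD, n = 3), Stat3 at 55.6 ± 2.54 and Jak1 at 36.3 ± 2.73, and these did not overlap with each other. Socs3 exceeded 94.5% of the 15465 genes with any FPKM above 0. Socs2 (8.54 ± 3.40), Stat5b (8.17 ± 0.884), Cish (6.55 ± 0.692), Jak2 (5.80 ± 0.986), Tyk2 (3.37 ± 0.42), Socs1 (3.05 ± 0.282) and Jak3 (2.43 ± 0.406) followed in FPKM, where Socs2 and Stat5b, Cish and Jak2, Tyk2 and Socs1, and Socs1 and Jak3 overlapped as neighbours. In I/R+Rk2, Socs3 (41.5 ± 4.13), Stat3 (30.7 ± 2.63) and Jak1 (24.1 ± 4.22) again came first. Next came Stat5b at 12.5 ± 3.27 FPKM, ahead of Socs2 (4.64 ± 1.72), Tyk2 (3.99 ± 0.244), Cish (2.66 ± 1.11) and Jak2 (2.48 ± 0.256), of which Socs2, Tyk2, Cish and Jak2 overlapped from neighbour to neighbour. Jak3 (1.10 ± 0.0776) and Socs1 (0.869 ± 0.111) stood last.

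The other genes of the pathway were grouped into lists by their role, and the counts of each list are to be read beside the 23.7% of all genes that were lower and the 20.3% that were higher. Among ligands of gp130 receptors, 6 of 7 were tested, and 5 fell while 1 rose, with a median log2 fold change of -2.49 (also -2.49 with Il11 at its bound). Osm, a macrophage and neutrophil cytokine, had 27.3, 16.7 and 14.2 CPM in the I/R livers and 1.81, 1.39 and 1.66 CPM after Rk2 (log2 fold change -3.59, SE 0.29, edgeR adjusted p = 0.000366). Lif, a gp130 cytokine of injured tissue, had 14.7, 18.9 and 17.98 CPM against 3.95, 1.07 and 1.23 CPM (-3.04, SE 0.46, edgeR adjusted p = 0.00262). Il6 had 3.39, 6.01 and 4.42 CPM against 1.43, 1.39 and 0.675 CPM, and Il11 had 21, 36 and 41 counts against 0 in each treated liver, at least 10.4-fold lower against a level of 3 counts per library. The one that rose, Ctf1 (log2 fold change 1.02, edgeR adjusted p = 0.018), was named after its values were seen, and dropping I/R replicate 1 (0.0571) or I/R+Rk2 replicate 2 (0.0632) ended its call.

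The gp130 receptor chains moved less. Of 7 chains tested, Osmr fell, Il11ra1 rose and 5 did not pass. Osmr, the oncostatin M receptor, had 25.0, 25.9 and 23.3 CPM in the I/R livers and 8.07, 5.30 and 5.83 CPM after Rk2 (log2 fold change -1.95, SE 0.17, edgeR adjusted p = 0.000458). Il11ra1, the interleukin-11 receptor, had 13.7, 14.7 and 15.4 CPM against 21.5, 24.0 and 25.4 CPM (0.70, SE 0.11, edgeR adjusted p = 0.00284). Il6ra did not pass (-0.38, edgeR adjusted p = 0.108), though it did in 5 of 17 alternatives, with a larger log2 fold change of -1.20 to -1.02 in the 3 fits on FPKM. The gp130 gene itself, Il6st, named here after its values were seen, averaged 125 CPM (SD 27.5) over the 3 I/R livers and 122 CPM (SD 13.9) over the 3 treated livers.

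Known target genes of STAT3 were mostly lower. Of 24 targets 18 fell, none rose and 6 did not pass, with a median log2 fold change of -0.66. They were led by the iron-binding protein Lcn2 (-3.70, edgeR adjusted p = 0.00024), the AP-1 subunit Fosl2 (-0.99, 0.000332), the acute-phase protein Serpina3n (-2.46, 0.000451) and Osmr. Several of them, such as Lcn2, are also made by neutrophils, whose markers fell in the same livers, and the contribution of those cells was not tested.

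On the growth hormone side, the receptor Ghr was at 158, 164 and 180 CPM in the I/R livers and at 225, 263 and 298 CPM after Rk2. Ghr rose, with a log2 fold change of 0.65 (SE 0.12, edgeR adjusted p = 0.0054). In the 3 limma fits on FPKM it was smaller, at 0.18, and did not pass (adjusted p from 0.209 to 0.217). In its list of hormone and leptin receptors, 3 of 5 were tested. Lepr fell (-2.16, edgeR adjusted p = 0.00758), and Prlr missed the threshold at a log2 ratio of 0.52 (edgeR adjusted p = 0.0599), which 4 of 17 alternatives passed. Of 14 targets of growth hormone and STAT5B in male liver, 5 rose, 1 fell and 8 did not pass, with a median log2 fold change of 0.37. The 6 called of 14 are a share near the 43.9% of all genes, and so are no result about this list. Igf1, the hepatic mediator of growth, had 214, 232 and 242 CPM in the I/R livers and 357, 381 and 356 CPM after Rk2 (0.67, SE 0.09, edgeR adjusted p = 0.00144). Igfals, its carrier protein in blood, had 27.6, 30.4 and 30.4 CPM against 97.5, 64.4 and 68.0 CPM (1.38, SE 0.17, edgeR adjusted p = 0.00117). Hsd3b5, a male-specific steroid enzyme, also rose (1.42, edgeR adjusted p = 0.00332), whereas Gadd45g, a stress-induced gene, fell (-1.13, edgeR adjusted p = 0.00222). Hepatocyte markers rose in 6 of 11 cases and fell in 1, Hnf4a (log2 fold change -0.52, edgeR adjusted p = 0.00583). The list summed to 69070 to 80280 CPM in the I/R livers and 103300 to 127500 CPM after Rk2. Its 7 calls became 2 when I/R replicate 1, I/R+Rk2 replicate 2 or I/R+Rk2 replicate 3 was dropped, and 4 when I/R replicate 3 was. The part of hepatocyte content in the values of the hormone targets was not tested.

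Other receptors that use JAKs were lower or did not pass. Of 10 tested chains of the common gamma and common beta families and the granulocyte receptor, 6 fell and none rose (median -1.17), and the smallest p-values were those of Csf2rb (-2.38), Csf3r (-2.19), Csf2rb2 (-2.47, a close relative of Csf2rb whose reads may be shared) and Il4ra (-0.75). Csf3r is also counted among the neutrophil markers above, and Il4ra among the STAT3 targets. The part of neutrophils and monocytes in these falls was not tested. Of 10 tested chains of the interferon, interleukin-10, interleukin-12 and interleukin-13 receptors, 6 fell and none rose (median -0.89), although the call of Ifnar1, named after its values were seen (-0.28, edgeR adjusted p = 0.0494), held in only 2 of 17 alternatives. Those with the smallest p were Ifngr1 (-1.21), Il13ra1 (-1.02), Il10rb (-1.48) and Il10ra (-2.55), all as log2 fold changes.

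Inhibitors beyond the 4 SOCS genes above were lower or did not pass. Of Socs4 to Socs7, 2 fell and 2 did not pass. The 2 called of 4 are a share near the 43.9% of all genes, and so are no result about this list. Socs5, a relative that acts on epidermal growth factor and interleukin-4 receptors, had 17.4, 15.0 and 15.7 CPM in the I/R livers and 6.01, 3.91 and 4.11 CPM after Rk2 (log2 fold change -1.77, SE 0.19, edgeR adjusted p = 0.000753). Socs6 fell by 0.51 on the log2 scale (edgeR adjusted p = 0.0158, or 0.0546 without I/R replicate 3, which left 1 of the 4 called). Among 11 phosphatases, PIAS proteins and adaptors, 6 fell and none rose. Ptpn1, a phosphatase of JAK2 and the insulin receptor, had 94.3, 109 and 96.2 CPM against 34.3, 23.2 and 23.8 CPM (-1.88, SE 0.17, edgeR adjusted p = 0.000463). Ptpn2, a phosphatase of JAK1 and STATs, had 34.4, 43.0 and 45.8 CPM against 16.2, 13.7 and 12.5 CPM (-1.54, SE 0.15, edgeR adjusted p = 0.000588). Ptprc, which encodes the leukocyte antigen CD45, fell by 2.82 and Cbl, a ubiquitin ligase, by 1.45 on the log2 scale. Stat6, the STAT of interleukin-4 signals, fell by 0.34 on the log2 scale (edgeR adjusted p = 0.0169), a call lost on dropping I/R replicate 2 (0.0525), I/R replicate 3 (0.0653) or I/R+Rk2 replicate 2 (0.0692) and on removing the length trend (0.154), while Stat2 and Stat5a did not pass.

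**Figure D4:**
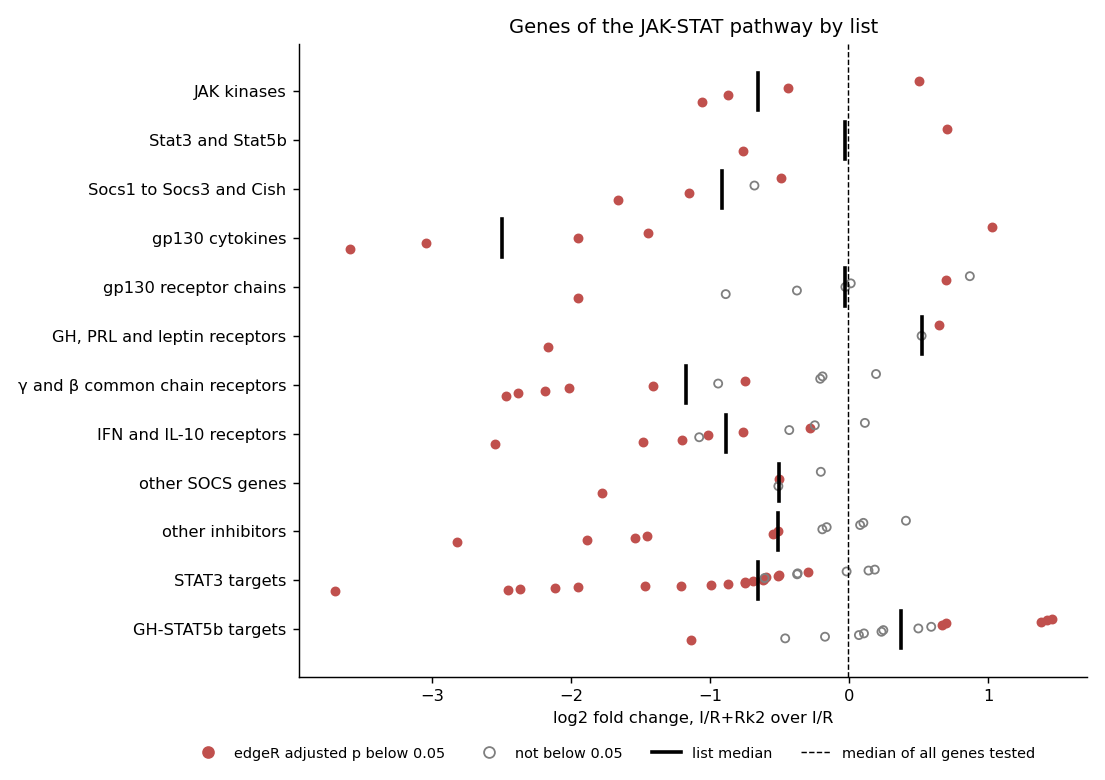
Log2 fold change of I/R+Rk2 over I/R (x axis) for each tested gene of 12 lists of the pathway, filled red where the edgeR adjusted p was below 0.05, with black bars for the list medians (Il11 included) and a dashed line for the median of all genes (-0.01). Il11 is left out of the points, since it had no counts in I/R+Rk2; the median of the gp130 cytokines was -2.49, that of the STAT3 targets -0.66 and that of the growth hormone targets 0.37.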

How the data were processed

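Per the labels, RNA from 6 livers (250 ng each) was made into libraries with an MGI kit. The submitters' processing notes name FastQC 0.11.5, HISAT2 2.2.1, StringTie 1.3.3 and the build mm10; annotation and strand setting were not given in the sources used here. The authors deposited raw counts per gene, which are whole numbers, and FPKM. No column held comparisons.

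The test was that of edgeR 4.0.16 (R 4.3.3): filterByExpr, TMM, estimateDisp and the quasi-likelihood F test of I/R+Rk2 against I/R on all 6 libraries, adjusted by Benjamini-Hochberg over all 12411 genes tested. Standard errors are the absolute log2 fold change over the square root of F. Spreadsheet-style dates stand where the symbol should be in 21 count rows. Ratios used counts plus 0.5. Alternatives were 3 other scalings, 2 other filters, DESeq2 1.42.0, limma 3.58.1 on log2(FPKM + 1) or log2(FPKM + 0.1) (genes averaging 1 FPKM or more, or all genes), a replicate block, a lowess trend on GENCODE M21 median transcript length (98.3% of rows matched), and each liver left out. The fit was tested on simulated counts in which a small share of genes changed, equally up and down. That setting differs from these data, where 43.9% of genes were called, so it cannot vouch for the scaling here. The genes and lists were chosen with earlier results of these data known. From each list, at most the 4 genes with the smallest p are named, and the 3 genes closest to the largest called rise and fall; others are said to be chosen after their values were seen. P-values measure only the spread between these livers. Bounds cover counting error only. A gene of the pathway and the lists that rest on it are not reported here.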

Additional observations from a re-analysis of the deposited data

How the results depend on the processing

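All 10 genes kept their direction in all 17 alternatives, and 7 to 9 of them passed. Jak2, Jak3, Stat3, Socs1, Socs3 and Cish passed in each, Jak1 in 15, Tyk2 in 13, Stat5b in 7 and Socs2 in none. The number of genes past the threshold and 2-fold was 1813, or 1847 when edgeR was run without a filter. With limma it was 901 on log2(FPKM + 1), 921 on the same scale with all genes and 1378 on log2(FPKM + 0.1), and the cause was not tested. Of the ratios, only Socs3 over Socs2 changed sign when a liver was left out, its log2 difference of 0.14 running from -0.13 on dropping I/R replicate 2 up to 0.395 on dropping I/R+Rk2 replicate 1; leaving livers out of the ratios was chosen after seeing the data. Same-numbered livers did not deviate together (correlations of -0.0313, 0.0477 and -0.0243), so no pairing by number was seen. With 3 livers per group, a weak pairing could be missed. With the replicate block, 9 of the 10 genes and 4713 of all genes passed. Across alternatives the median log2 fold change ran from -3.04 to -0.97 for the gp130 cytokines and from -2.23 to -0.173 for the common gamma and beta receptors. Counts of 23 to 109 limit Socs1, and the spread between livers limits Socs2 and Stat5b.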

Other observations

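Genes closest in profile over the 6 livers, by Euclidean distance of centred log2 CPM, were listed for the largest called rise and fall among the 10. Those nearest to Stat5b were Enpp3, AU022252 and Slc44a1, at distances of 0.171, 0.206 and 0.221 and with log2 fold changes of 0.71, 0.64 and 0.64. Enpp3 and AU022252 passed in 10 of 17 alternatives and Slc44a1 in 9 of 17. Those nearest to Socs1 were Peg10, Fam78a and Limch1, at 0.239, 0.276 and 0.281, with log2 fold changes of -1.58, -1.69 and -1.77. Fam78a was scarce, averaging 0.63 CPM in I/R and 0.197 CPM after Rk2. Endothelial markers were split, with 4 lower and 3 higher of 8, and of 8 stellate cell markers 4 were lower and none higher. Of all genes tested, 23.7% were lower and 20.3% higher.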
